A study of Rattus norvegicus with 6 samples.

Results

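Late meiotic spermatocytes were taken from single-cell RNA libraries of rat testis as the cells in which Aurka, Tpx2 and Cdca8 stood highest. All 11744 deposited cells were scored for 10 sets of 3 genes each, as the mean z-score of the deposited normalized values over all cells, and each cell joined its highest set. The set of Aurka, Tpx2 and Cdca8 held 1066 cells, 9.08% of all. Since expression chose the cells, their levels beside other sets are given as a description with no test. The tissue came from SD rats, a laboratory strain, in 2 groups of 3 animals with 1 library each: rats subjected to terrifying sounds as a model of stress, and normal rats that served as controls. No allele, transgene or drug is named for either group, and neither the animals' age nor the length of the sound exposure is stated in the labels. Stressed libraries 1 to 3 gave 16, 160 and 319 late meiotic cells, and control libraries 1 to 3 gave 338, 126 and 107.

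Meiosis reduces the chromosome set of the germ cell to the haploid one. In the long pachytene stage, paired chromosomes are held together by the synaptonemal complex, and the cell then leaves prophase, builds a spindle and passes through the meiotic divisions to form round spermatids. Aurka is a kinase of the spindle poles, Tpx2 binds and activates it on microtubules, and Cdca8 (borealin) is a subunit of the chromosomal passenger complex, which corrects the attachment of chromosomes to the spindle. Entry into division depends on cyclin B with its kinase Cdk1, on the phosphatases of the Cdc25 family that switch the kinase on, and on Plk1. The sets on either side are used for comparison: the pachytene-like set (Psma8, Piwil1 and Sycp3, 444 cells) and the round spermatid-like set (Tssk5, Itih3 and Lrrc34, 1048 cells).

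Many genes of cell division carry a pair of short elements upstream of their start, the CCAAT box, bound by the factor NF-Y, and the cell cycle genes homology region, TTTGAA, known from human and mouse cells as a site of the MuvB complex. The 250 bases before the start of 4 genes are shown because Aurka and Cdca8 define the set with Tpx2, and because the B-type cyclins Ccnb1 and Ccnb2 were higher in it without being used by the rule. Sequences are from RefSeq on assembly GRCr8, all on the minus strand and printed 5′ to 3′ along the gene, and capitals mark TTTGAA and CCAAT on either strand (TTCAAA and ATTGG on the other). Aurka lies at chr3:181560770-181561019, Cdca8 at chr5:142483200-142483449, Ccnb1 at chr2:33655226-33655475 and Ccnb2 at chr8:79981659-79981908.
Aurka: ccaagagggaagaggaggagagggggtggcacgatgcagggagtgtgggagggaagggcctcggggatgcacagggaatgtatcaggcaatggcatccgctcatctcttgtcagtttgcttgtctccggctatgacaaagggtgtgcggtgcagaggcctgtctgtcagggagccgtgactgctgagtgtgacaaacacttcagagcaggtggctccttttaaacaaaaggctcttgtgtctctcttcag
Cdca8: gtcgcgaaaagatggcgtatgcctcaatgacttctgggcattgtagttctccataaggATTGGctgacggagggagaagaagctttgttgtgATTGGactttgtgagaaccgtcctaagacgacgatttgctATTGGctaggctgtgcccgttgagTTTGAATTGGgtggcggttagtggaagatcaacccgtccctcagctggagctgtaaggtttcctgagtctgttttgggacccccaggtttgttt
Ccnb1: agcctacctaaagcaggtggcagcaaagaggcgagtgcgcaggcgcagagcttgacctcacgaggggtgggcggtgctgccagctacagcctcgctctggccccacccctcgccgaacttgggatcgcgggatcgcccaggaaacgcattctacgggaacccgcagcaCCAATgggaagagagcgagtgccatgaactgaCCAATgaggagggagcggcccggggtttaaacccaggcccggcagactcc
Ccnb2: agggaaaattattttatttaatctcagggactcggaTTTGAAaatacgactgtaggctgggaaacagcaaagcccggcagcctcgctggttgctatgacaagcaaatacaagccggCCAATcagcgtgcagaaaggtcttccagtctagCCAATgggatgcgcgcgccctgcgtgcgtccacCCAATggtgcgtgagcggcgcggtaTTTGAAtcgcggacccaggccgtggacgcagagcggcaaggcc

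The Ccnb2 window held 3 CCAAT elements that begin 134, 101 and 68 bases before the start, and a TTTGAA at 43 bases, with another TTTGAA at 214 bases. The Cdca8 window held CCAAT at 192, 158, 118 and 89 bases and TTTGAA at 94 bases, and the last of these CCAAT elements shares a base with the TTTGAA. Ccnb1 held CCAAT at 82 and 50 bases and no TTTGAA, and neither string was in the Aurka window. Each window rests on the RefSeq start of the gene, which was not checked, so an absent string is absent from that window only. Over all 33469 promoter windows of that length, TTTGAA was in 16.2%, CCAAT in 34.0% and both in 5.87%. Of the 107 windows found for 128 genes of 6 lists on cell division (Aurora kinases and the passenger complex, cyclins and division kinases, the anaphase-promoting complex and checkpoint, kinetochore, spindle, and condensin), 34.6% held TTTGAA, 56.1% CCAAT and 26.2% both. Of 7 synaptonemal complex windows 28.6% held TTTGAA, 42.9% CCAAT and 0% both, and of 15 acrosome windows 26.7% held TTTGAA, 33.3% CCAAT and 6.67% both, so TTTGAA alone was also more frequent in these small lists than over all windows. Among the 16 markers of late meiosis described below, 15 had a window, of which 5 held TTTGAA, 12 held CCAAT and 5 held both. A match of letters is a description and not a binding site.

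Total counts were 16756543 to 114984746 per library, with stressed library 1 the lowest, and the late meiotic cells of a library summed to 475280 counts in stressed library 1 and to 4167748 to 13679322 in the others. Their median was 26712 to 44038 counts and 1954 to 3450 genes per cell. The late meiotic sums of any pair of same-group libraries had a chi-square of 25.6 to 53.6 per degree of freedom, so none was a copy of another. Stressed library 1 stands apart: in its late meiotic cells, stromal and peritubular markers summed to 1805 CPM (counts scaled to a total of 1000000), against 20.9 and 36.9 CPM in the other stressed libraries and 29.9 to 80.9 CPM in the controls. Of those 858 counts, 812 came from 1 cell, which also held 413 of 450 counts of immediate early genes, and without it the stromal sum was 103 CPM. Macrophage markers summed to 745 CPM in that library, or 495 CPM without its top cell, and to 211 to 351 CPM in the others. The lists of Sertoli, Leydig, endothelial, and T and natural killer cell markers stood at 0 to 11.6 CPM in every library. Transcripts of later germ cells were more abundant: 13 genes of late spermatids summed to 7295 to 14113 CPM in the late meiotic cells, and the part of free RNA in that level was not tested. Of the barcodes, 2 occurred in more than 1 library, and none of their 4 cells was late meiotic.

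The 3 genes of the rule were present together in 838 late meiotic cells (78.6%), 2 of them in 194 and 1 in 34. Aurka was detected in 86.7% of late meiotic cells, against 57.0% of pachytene-like and 28.7% of round spermatid-like cells, and against 1.33% of the set of late spermatids (Tnp2, Cst13 and Prss58), where it should be absent, at median depths of 32776, 32346, 34431 and 33951 counts per cell. Aurka stood at 318, 318 and 330 CPM in the late meiotic cells of stressed libraries 1 to 3 and at 451, 296 and 327 CPM in those of control libraries 1 to 3. Its median over libraries was 323 CPM in late meiotic, 155 CPM in pachytene-like and 47.1 CPM in round spermatid-like cells. Tpx2 stood at 631, 661 and 845 CPM in stressed and at 594, 442 and 643 CPM in control libraries, with medians of 637, 389 and 73.9 CPM in late meiotic, pachytene-like and round spermatid-like cells. Cdca8 set the cells apart from round spermatid-like cells (medians 874 and 110 CPM) but not from pachytene-like cells (912 CPM), where it was as high. These values follow from the rule.

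The border of the set was gradual. The second-best set was the pachytene-like one in 575 cells (53.9%), the round spermatid-like one in 428 (40.2%) and another in 63. The score exceeded that of the next set by a median of 1.01 z units, with a range of 0.00259 to 5.09. The 52 cells within 0.1 of leaving the set held 175 CPM of Aurka, 349 CPM of Tpx2 and 506 CPM of Cdca8, and the 53 cells within 0.1 of joining it held 154, 422 and 690 CPM.

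The label was set against 16 markers of late meiosis that the rule did not use. Of these, 15 reached a mean of 5 CPM, and 9 were higher in late meiotic than in pachytene-like cells in every library compared, while 3 were lower in every one. Stressed library 1, with 9 pachytene-like cells, was left out of that comparison, which leaves 5 libraries. Over all 8083 genes at that level, 17.7% were higher and 16.2% lower in all 5. Against round spermatid-like cells 12 of the 15 were higher in all 6 libraries and none was lower, where 33.6% of all genes were higher and 22.8% lower. The 9 markers that were higher than in pachytene-like cells were Ccna1, Ccnb1, Ccnb2, Plk1, Kif20a, Kif23, Cenpe, Nusap1 and Ube2c. The 3 that were lower were Cdc20, an activator of the anaphase-promoting complex, Bub1b, a checkpoint kinase, and Kif11, a motor of the bipolar spindle. The cells were chosen by expression, so the counts describe the set and do not test it.

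Cyclins and the kinases of division entry had the highest median over pachytene-like cells of the 6 lists on cell division. Ccnb1, the mitotic B cyclin, was at 305, 367 and 470 CPM in stressed and 415, 404 and 420 CPM in control libraries. In every library compared it was above both neighbours, whose medians were 152 CPM in pachytene-like and 267 CPM in round spermatid-like cells, against 409 CPM in late meiotic cells. Ccna1, the germ cell A cyclin that mouse spermatocytes need to leave prophase, had medians of 306 CPM in late meiotic, 144 CPM in pachytene-like and 212 CPM in round spermatid-like cells. Plk1, a kinase of division entry, had medians of 168, 54.1 and 85.3 CPM in the same order, and was highest in stressed library 1 (305 CPM). Cdc25a, a phosphatase that activates cyclin-dependent kinases, had medians of 110, 40.4 and 30.4 CPM, and the lowest late meiotic library (78.8 CPM) lay above every library of the other 2 sets. Cdk1 did not separate late meiotic from pachytene-like cells (medians 23.6 and 21.4 CPM) and was lower in round spermatid-like cells (3.45 CPM). Ccne2, an E cyclin, ran the other way, at 9.20 CPM in late meiotic cells against 67.0 CPM in pachytene-like cells. Of the 15 cyclins and division kinases at 5 CPM, 7 were higher and 1 lower than in pachytene-like cells in all 5 libraries (all genes, 17.7% and 16.2%). Their median log2 ratio was 0.99 (all genes, 0.00). Against round spermatid-like cells 8 were higher and 1 lower in all 6 libraries (all genes, 33.6% and 22.8%), with a median of 0.44 (all genes, 0.33).

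**Figure D1:**
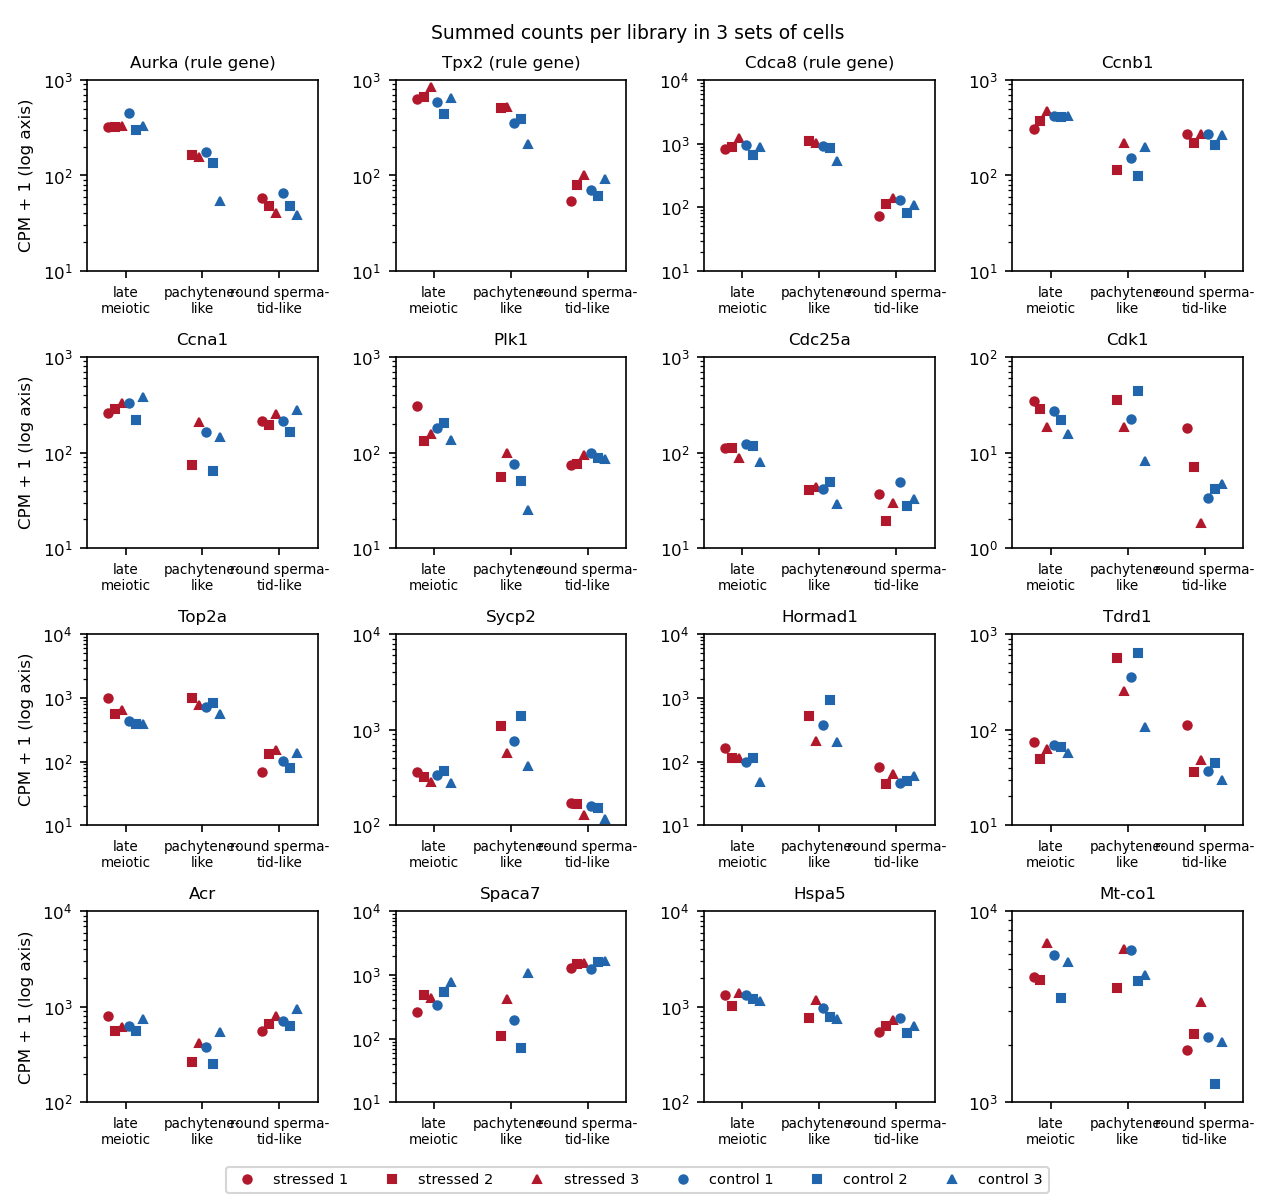
CPM plus 1, on log axes, for 16 genes in late meiotic, pachytene-like and round spermatid-like cells, with 1 point per library (red stressed, blue control, shape for the replicate) and no point for the 9 pachytene-like cells of stressed library 1. Ccnb1, Ccna1, Plk1 and Cdc25a lie higher in late meiotic than in pachytene-like cells, Sycp2, Hormad1 and Tdrd1 lower, and Mt-co1 is lowest in the round spermatid-like cells.

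The partners of the rule genes were not all high in the set. The Aurora and passenger complex list had 7 other members at 5 CPM. Of these, 3 were higher than in pachytene-like cells in all 5 libraries and 3 lower (all genes, 17.7% and 16.2%). Against round spermatid-like cells 6 were higher in all 6 libraries (all genes, 33.6%). Haspin, the kinase that marks histone H3 for the passenger complex, had medians of 954 CPM in late meiotic, 474 CPM in pachytene-like and 681 CPM in round spermatid-like cells. Birc5 (survivin), another subunit, had 98.3, 70.5 and 32.1 CPM, and Aurkb, the complex's kinase in somatic cells, had 20.9, 6.90 and 8.0 CPM. Aurkc, the Aurora kinase of germ cells, was lower in late meiotic (61.7 CPM) than in pachytene-like cells (211 CPM), as were Incenp, the scaffold of the complex (27.5 and 62.4 CPM), and Sgo2, which protects centromeric cohesion (86.5 and 172 CPM). All 3 were still above round spermatid-like cells, at 15.9, 8.44 and 6.28 CPM for Aurkc, Incenp and Sgo2.

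Spindle, kinetochore and condensin genes were high in both late meiotic and pachytene-like cells. Of 27 spindle and cytokinesis genes, 5 were higher and 7 lower than in pachytene-like cells in all 5 libraries (all genes, 17.7% and 16.2%). Of 22 centromere and kinetochore genes 2 were higher and 5 lower. Against round spermatid-like cells, 17 of the 27 and 15 of the 22 were higher in all 6 libraries (all genes, 33.6%). The median log2 ratios were 1.22 and 1.08 (all genes, 0.33). Prc1, which bundles microtubules at the spindle midzone, had medians of 727 CPM in late meiotic, 690 CPM in pachytene-like and 157 CPM in round spermatid-like cells. Nusap1, a spindle protein, had 234, 111 and 68.8 CPM, and Cenpf, a protein of the outer kinetochore, had 273, 244 and 134 CPM. Top2a, the topoisomerase that untangles chromosomes before they separate, had 489 CPM in late meiotic and 786 CPM in pachytene-like cells, with 116 CPM in round spermatid-like cells. Of 24 genes of the anaphase-promoting complex and checkpoint, 4 were higher and 7 lower than in pachytene-like cells in all 5 libraries. Over all genes these shares were 17.7% and 16.2%. Ube2c, the ubiquitin-conjugating enzyme of the complex, was higher (229 and 85.8 CPM). The activator Cdc20 (24.9 and 154 CPM) and the complex's meiotic inhibitor Fbxo43 (22.2 and 145 CPM) were lower.

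Synaptonemal complex and recombination genes ran mainly lower than in pachytene-like cells, and cohesin genes did not. Of 8 synaptonemal complex genes, none was higher and 5 were lower than in pachytene-like cells in all 5 libraries, with a median log2 ratio of -1.66. Over round spermatid-like cells the median was 0.78. Of 11 meiotic recombination genes 1 was higher and 6 lower than in pachytene-like cells in all 5 libraries, with a median of -0.42. Of 7 meiotic cohesin genes 1 was higher and 1 lower than in pachytene-like cells in all 5 libraries (all genes, 17.7% and 16.2%), with a median of 0.31. The higher one was Rec8, the meiotic cohesin that holds sister chromatids together until the second division, at medians of 62.3 CPM in late meiotic, 29.3 CPM in pachytene-like and 168 CPM in round spermatid-like cells. Sycp2, a protein of the chromosome axis, stood at 362, 320 and 283 CPM in stressed and 331, 368 and 279 CPM in control libraries, a median of 326 CPM against 764 CPM in pachytene-like and 153 CPM in round spermatid-like cells. Hormad1, which marks unpaired axes, had 112 CPM against 379 CPM in pachytene-like cells. Of 15 genes of the piRNA pathway, which silences transposons, 7 were lower and 2 higher in all 5 libraries (all genes, 16.2% and 17.7%). Tdrd1 had a median of 63.3 CPM in late meiotic and 353 CPM in pachytene-like cells, whereas Mael and Ddx4 were a little higher in late meiotic cells (670 and 568 CPM for Mael, 324 and 275 CPM for Ddx4).

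The acrosome is the enzyme-filled cap of the sperm head. Of 16 of its genes, 4 were higher and 1 lower than in pachytene-like cells in all 5 libraries (all genes, 17.7% and 16.2%), with a median log2 ratio of 0.61. Against round spermatid-like cells 10 were lower and 3 higher in all 6 (all genes, 22.8% and 33.6%), with a median of -1.38. Not every member lay between the neighbours. Zpbp2 and Spata16, named after their values were seen, were higher than both in every library compared, with log2 ratios of 1.06 and 0.71 for Zpbp2 and 0.70 and 0.66 for Spata16 over pachytene-like and round spermatid-like cells. Acr, the acrosomal protease acrosin, had medians of 623 CPM in late meiotic, 377 CPM in pachytene-like and 685 CPM in round spermatid-like cells. Spaca7, an acrosomal protein, had 465, 199 and 1518 CPM in the same order, although in control library 3 the pachytene-like cells were above the late meiotic cells. Acrv1 was detected in 29.5% of late meiotic, 13.7% of pachytene-like and 74.6% of round spermatid-like cells, against 8.45% of the late spermatid set.

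All 12 mitochondrially encoded genes at 5 CPM were higher than in round spermatid-like cells in all 6 libraries, with a median log2 ratio of 1.81. Against pachytene-like cells 1 was higher and 3 lower in all 5 libraries (all genes, 17.7% and 16.2%). Mt-co1, a subunit of cytochrome oxidase, had medians of 5001 CPM in late meiotic, 4615 CPM in pachytene-like and 2124 CPM in round spermatid-like cells. Mitochondrial counts made up a median of 1.93 to 3.16% of a late meiotic cell over the libraries, 1.97 to 3.05% of a pachytene-like cell and 0.325 to 0.969% of a round spermatid-like cell, in tables that hold no cell over 5.0%. Of 66 nuclear genes of oxidative phosphorylation 44 were higher than in round spermatid-like cells in all 6 libraries and 1 lower, with a median log2 ratio of 0.45. Of 60 ribosomal protein genes 43 were higher and none lower, with a median of 0.47. Over all genes 33.6% were higher in all 6 libraries and the median was 0.33. Most ribosomal genes were lower than in pachytene-like cells, 35 of 60 in all 5 libraries, with 1 higher (all genes, 16.2% and 17.7%). Hspa5, a chaperone of the endoplasmic reticulum, was at 1274 CPM in late meiotic cells, the highest of the 3 sets, with 787 CPM in pachytene-like and 628 CPM in round spermatid-like cells.

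**Figure D2:**
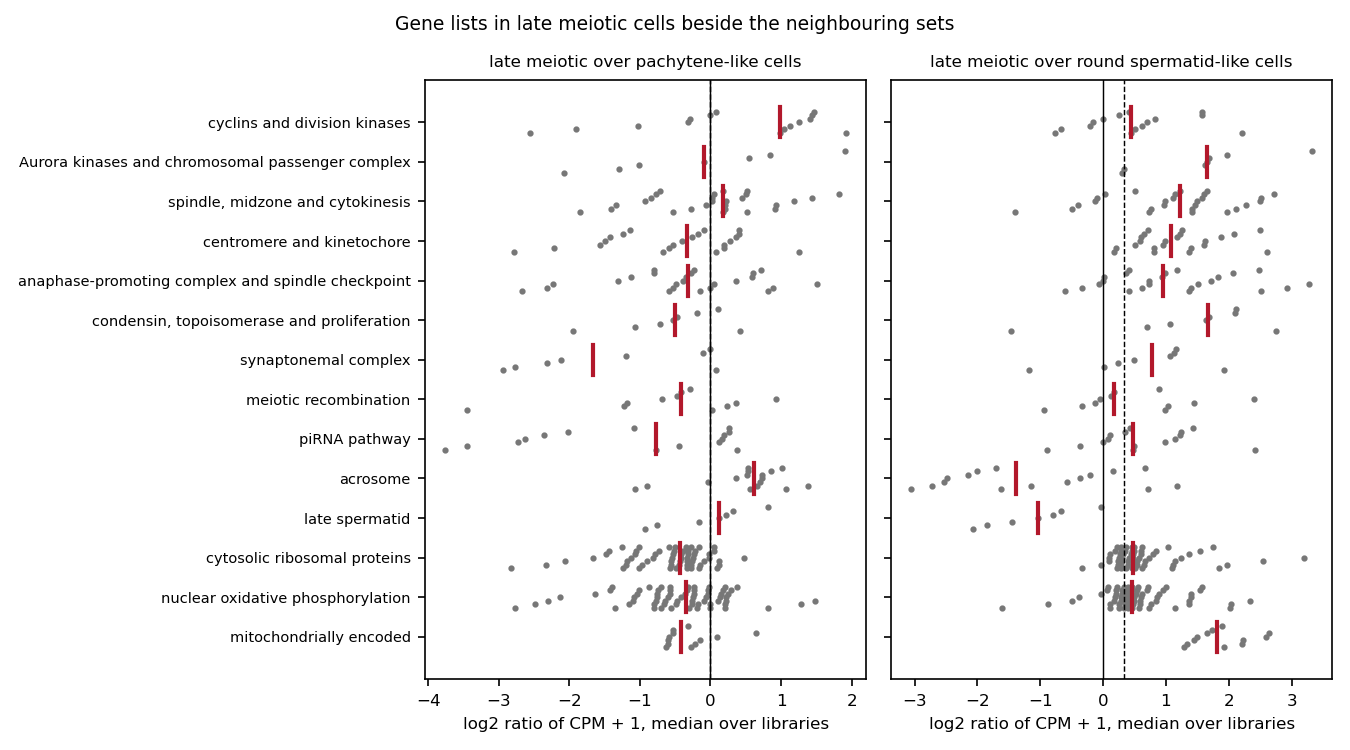
Log2 ratio of CPM + 1 in late meiotic cells over pachytene-like cells (left) and over round spermatid-like cells (right), where each grey point is the median over libraries of 1 gene outside the genes of the rule, the red bar is the median of the list, the solid line is 0 and the dashed line is the median of all genes. The cyclins lie to the right on the left panel with a median of 0.99 and the synaptonemal complex to the left at -1.66, and the mitochondrially encoded genes lie farthest right on the right panel at 1.81.

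The 20 genes that stood highest above every other set of the same library were mostly unnamed. Of them, 17 carry only an ENSRNOG or AABR identifier that the files do not pair with a gene name. They are led by ENSRNOG00000063177 (medians 78.8 CPM in late meiotic, 13.0 CPM in pachytene-like and 21.4 CPM in round spermatid-like cells) and ENSRNOG00000069827 (49.4, 8.16 and 8.39 CPM). The rest are Cdc25a, Nfe2l2, a transcription factor of the oxidative stress response (63.4, 31.0 and 13.4 CPM), and RGD1562508, which is also an identifier (85.2, 19.3 and 16.1 CPM).

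Within the set, cells on the side of pachytene and cells on the side of round spermatids were compared as well. Cells were divided by their second-best set, with summed counts compared in 5 libraries. Condensin and proliferation genes were higher on the pachytene side in all 5 libraries for 6 of 8, and spindle genes for 12 of 27, where 10.9% of all genes were higher and 12.7% lower. Top2a stood at 662 and 779 CPM on the pachytene side in stressed libraries 2 and 3 and at 519, 447 and 536 CPM in control libraries 1 to 3, against 375 and 485 CPM and 309, 269 and 340 CPM on the spermatid side. Acrosome genes were lower on the pachytene side for 7 of 16 and higher for none. Synaptonemal complex genes were higher for 2 of 8 and lower for 1, with a median log2 ratio of 0.13, and cyclins and division kinases for 2 and 1 of 15, with a median of 0.21. Spaca7 stood at 310 and 216 CPM on the pachytene side in stressed libraries 2 and 3 and at 198, 472 and 698 CPM in controls, against 729 and 726 CPM and 515, 600 and 788 CPM on the spermatid side. Ccnb1 differed less, with a median log2 ratio of 0.14 and 4 of 5 libraries higher on the pachytene side. The split uses the scores that chose the cells, so it is a description only.

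The first comparison between the groups was the share of late meiotic cells. They made up 3.91% of all cells in stressed library 1 (Wilson 95% interval 2.42 to 6.26), 6.38% in stressed library 2 (5.49 to 7.41) and 14.3% in stressed library 3 (12.9 to 15.8). In controls 1 to 3 they made up 14.4% (13.1 to 15.9), 7.0% (5.91 to 8.27) and 4.36% (3.62 to 5.24). Both groups spanned nearly the same range, and the means were 8.19% ± 5.42 in stressed and 8.60% ± 5.22 in control rats (SD, n = 3 each; difference -0.403 percentage points, 2-sided exact permutation test, p = 0.7, where 0.1 is the smallest p that 3 against 3 allow). The difference was 2.52 points without control library 1 and 1.74 points without stressed library 1, so its sign rests on single libraries. As a share of late meiotic and pachytene-like cells together, they made up 64.0%, 64.5% and 80.2% in stressed libraries 1 to 3 and 68.1%, 68.9% and 66.9% in control libraries 1 to 3. The means were 69.6% ± 9.18 and 68.0% ± 1.00 (SD, n = 3 each; difference 1.6 points, exact permutation p = 1). Stressed library 3 lay above all others, and without it the difference was -3.70 points. The intervals cover counting error only.

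**Figure D3:**
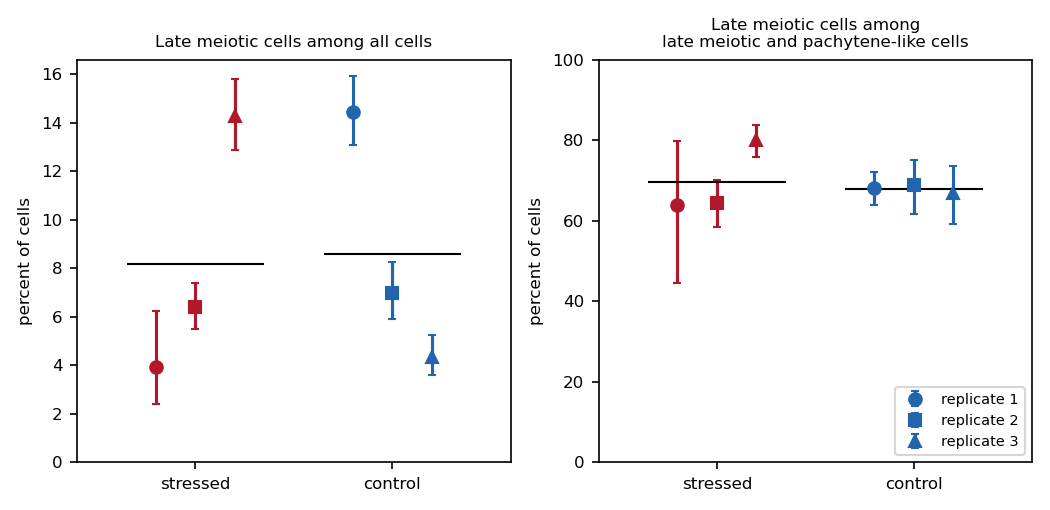
Share of late meiotic cells in each library, as percent of all cells (left) and of late meiotic plus pachytene-like cells (right), with stressed libraries in red and control libraries in blue, Wilson 95% intervals as bars and group means as black lines. The stressed libraries span 3.91% to 14.3% of all cells and the control libraries 4.36% to 14.4%.

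Gene expression in late meiotic cells was then compared between stressed and control rats on counts summed per library. No gene passed: edgeR's quasi-likelihood test called 0 of 9580 genes at an adjusted p under 0.05 (0% in each direction). At an unadjusted p under 0.05 there were 198 genes (2.07%), 103 higher and 95 lower in stressed rats. The 3 stressed libraries lay wholly above the controls in 200 genes (2.09%) and wholly below in 595 (6.21%), together 8.3%, and the median log2 fold change was -0.03. DESeq2 called 4 genes. The genes with the smallest p are described by their values, and each that was not used by the assignment rule had an edgeR adjusted p of 1.00 unless given. The p-values set the difference between the groups against the spread between these libraries, which is estimated with information shared across genes.

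The smallest p belonged to AABR07001902.1, an identifier without a gene name. It stood at 50.5, 34.5 and 32.6 CPM in stressed and 2.34, 4.80 and 4.13 CPM in control libraries. The groups were far apart, with a log2 fold change of 3.4 (SE 0.52) and an edgeR adjusted p of 0.374, and all 3 stressed libraries were above all controls. DESeq2 gave an adjusted p of 4.16e-07 and edgeR without a filter on low counts 0.0282. Over all alternatives the adjusted p ran from 4.16e-07 to 1.00. In pachytene-like cells of the same animals it stood at 39.3 and 28.3 CPM in stressed libraries 2 and 3 and at 3.49, 2.12 and 3.14 CPM in controls.

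Pheta1, an adaptor of endosomes, had no count in the late meiotic cells of the 3 stressed libraries and stood at 11.1, 15.6 and 2.75 CPM in controls, 231 counts in all. With a floor of 3 counts over the group, it was at least 55.7-fold lower in stressed rats (DESeq2 adjusted p = 0.0117). Vasp, which promotes the growth of actin filaments, stood at 40.0, 51.7 and 40.2 CPM in stressed and 14.6, 12.0 and 12.0 CPM in control libraries, a log2 fold change of 1.82 (SE 0.40) that DESeq2 called at an adjusted p of 0.0330. The groups did not overlap, and without any 1 library the log2 fold change stayed between 1.66 and 1.92. ENSRNOG00000071151 stood at 0, 1.37 and 0.0974 CPM in stressed and 10.1, 19.4 and 13.6 CPM in control libraries, and DESeq2 called it at an adjusted p of 0.0330. For these 3 genes that was the lowest adjusted p over the alternatives, and the highest was 1.00. In pachytene-like cells Pheta1 stood at 1.31 and 0.480 CPM in stressed libraries 2 and 3 and at 15.5, 25.0 and 17.1 CPM in controls. The groups overlapped there for Vasp, at 57.0 and 76.3 CPM against 34.9, 12.7 and 95.2 CPM. They also overlapped for ENSRNOG00000071151, at 0 and 7.68 CPM against 2.13, 2.12 and 45.8 CPM. Of the genes described below, Stx17 and Pnpla7 overlapped there too, and Kdm1a and Mt-nd4l did not.

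Among the other genes that were higher in all 3 stressed libraries, Stx17, a syntaxin of autophagosomes, stood at 16.8, 20.4 and 37.3 CPM in stressed and 5.56, 5.28 and 7.86 CPM in control libraries. Kdm1a, a demethylase of histone H3, is given because an earlier account of these data named it, not for its rank by p. It stood at 118, 131 and 133 CPM in stressed and 86.3, 79.4 and 49.3 CPM in control libraries. Psma8, the proteasome subunit of spermatocytes, stood at 181, 197 and 292 CPM in stressed and 163, 104 and 92.8 CPM in control libraries. As a gene of the pachytene-like rule it helped to decide which cells left the set, so these values are given without a test. Top2a stood at 991, 548 and 642 CPM in stressed and 431, 386 and 387 CPM in control libraries, a log2 fold change of 0.87 (SE 0.24) and an unadjusted p of 0.00388. In stressed library 1 the cell with the stromal markers held 219 of 471 Top2a counts, and without it the log2 fold change was 0.58. The same cell bears on Carhsp1, an RNA-binding protein, at 196, 49.1 and 24.6 CPM in stressed and 18.1, 9.12 and 17.5 CPM in control libraries. Its log2 fold change of 2.47 was 1.00 without that cell. For Pmf1, a kinetochore protein, the log2 fold change was 1.84 and 0.95 without the cell, and for Atg3, an enzyme of autophagy, 1.40 and 0.55. Plekhh2, at 143, 56.1 and 25.5 CPM in stressed and 21.9, 14.2 and 23.2 CPM in control libraries, moved with the whole of stressed library 1, from a log2 fold change of 1.84 to 1.12 without it. Lexm and Ttc24 had log2 fold changes of 2.08 and 1.59.

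Lower in all 3 stressed libraries was Pnpla7, a lysophospholipase, at 21, 21.9 and 23.2 CPM in stressed and 53.6, 70.5 and 56.4 CPM in control libraries (log2 fold change -1.39, SE 0.36). The stressed values lay close together, and the gap was near the same without any 1 library (-1.50 to -1.29). Tab2, an adaptor of the TAK1 kinase, stood at 0, 1.20 and 1.75 CPM in stressed and 12.6, 9.12 and 7.47 CPM in control libraries. Mbd6, a methyl-CpG-binding domain protein, stood at 4.21, 6.67 and 9.74 CPM in stressed and 21.2, 19.7 and 27.7 CPM in control libraries. Mt-nd4l, a small mitochondrial gene that overlaps Mt-nd4, so that their reads may be divided in counting, stood at 173, 110 and 128 CPM in stressed and 293, 206 and 262 CPM in control libraries. Atp8b3, a lipid flippase of the acrosome, stood at 160, 134 and 152 CPM in stressed and 442, 190 and 243 CPM in control libraries, and its log2 fold change of -0.93 was -0.55 without control library 1. RT1-Bb, a class II histocompatibility gene with close relatives, stood at 2.10, 3.93 and 5.16 CPM in stressed and 71.9, 6.24 and 16.9 CPM in control libraries, and its log2 fold change of -2.84 was -1.52 without control library 1. Hist1h2bg, a member of a histone family whose reads may be shared, had a log2 fold change of -1.79. Pdgfa, a growth factor, was the exception among these genes, since control library 1 (0.731 CPM) lay below 2 of the stressed libraries (2.10, 0.684 and 1.27 CPM), with 21.8 and 22.8 CPM in control libraries 2 and 3.

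**Figure D4:**
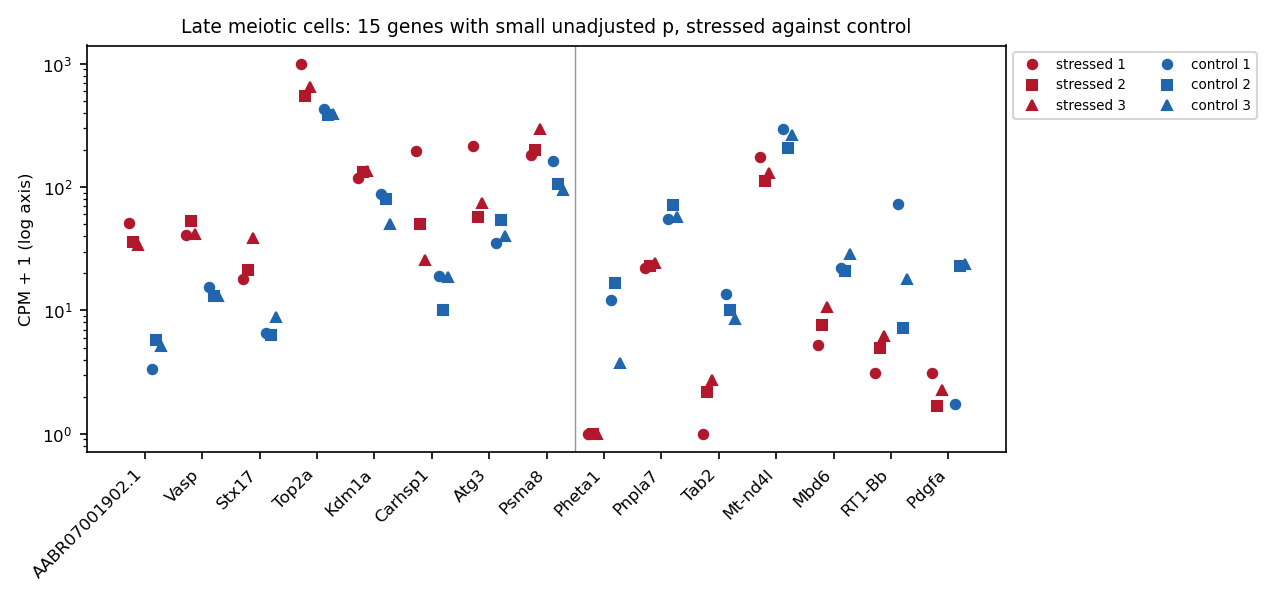
CPM plus 1, on a log axis, in late meiotic cells of each library for 15 genes, with stressed libraries in red left of control libraries in blue and the shape for the replicate. Left of the grey line are genes with higher and right of it genes with lower fitted levels in stressed rats, and only Pdgfa has groups that overlap.

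No list moved as called genes: edgeR called 0 members of each of the 30 lists. Of 28 spindle genes tested, 17 were higher in stressed rats with a median log2 fold change of 0.28, and of 26 centromere and kinetochore genes 18 were higher with a median of 0.26, beside 4543 of 9580 genes higher and a median of -0.03 over all genes. All 3 stressed libraries were above the controls in 4 genes of each of these lists, and in 2.09% of all genes. Pmf1 is among the 4 of the kinetochore list, and its value without the cell with the stromal markers is given above. The values of both lists, and those of Ckap2, Cenpu and Sgo2 that follow, include that cell. How far they rest on it is not given. Ckap2, a spindle protein, had a log2 fold change of 1.99 (unadjusted p = 0.0159), Cenpu, a centromere protein, 0.56 (0.0356), and Sgo2, at 109, 94.8 and 107 CPM in stressed and 78.1, 69.3 and 46.4 CPM in control libraries, 0.73 (0.0343), each with an edgeR adjusted p of 1.00. Of 18 cyclins and division kinases 14 were lower, with a median of -0.11 and no unadjusted p under 0.05. Ccnb1 itself had a log2 fold change of -0.06 (SE 0.25). Of the 3 genes of the rule, Tpx2 had a log2 fold change of 0.38 (SE 0.26), Cdca8 0.26 (SE 0.25) and Aurka -0.11 (SE 0.24), given without a test.

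Acrosome genes were lower in 12 of 16 (all genes, 5037 of 9580), with a median log2 fold change of -0.22. Of the 13 late spermatid genes 12 were higher, with a median of 0.39, but 6 of the 13 (Tnp2, Prm2, Odf1, Smcp, Oaz3 and Hspa1l) were among the genes that assigned the cells, so the count is not independent of the rule. In none of the 13 did all stressed libraries lie above the controls, and the sums of the list overlapped between the groups, at 10912, 14113 and 7601 CPM in stressed libraries 1 to 3 and 8788, 7295 and 9178 CPM in control libraries 1 to 3. Rec8 stood at 50.5, 45.7 and 52.1 CPM in stressed and 72.4, 78.2 and 124 CPM in control libraries (log2 fold change -0.87, SE 0.35, unadjusted p = 0.0310). Lists of responses to stress hormones and damage had no member called. Of 8 genes of the glucocorticoid receptor and its targets 7 were lower, with a median of -0.24. Of 13 heat shock genes 9 were lower, with a median of -0.10. Over all genes 5037 of 9580 were lower, with a median of -0.03. The 7 apoptosis and p53 genes tested had a median of 0.00. Of the immediate early genes, Fos stood at 417, 0 and 0.0974 CPM in stressed and 1.10, 7.20 and 0 CPM in control libraries, and 192 of the 198 counts in stressed library 1 came from the cell with the stromal markers. Of 64 ribosomal protein genes 44 were higher (median 0.12), and of 65 nuclear oxidative phosphorylation genes 43 (median 0.07). Over all genes 4543 of 9580 were higher, with a median of -0.03.

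Last, it was asked whether the difference between stressed and control rats was another one in late meiotic than in pachytene-like cells, with the library as a block. Stressed library 1 had too few pachytene-like cells, which left 2 stressed and 3 control libraries. The interaction test of edgeR called 0 of 11087 genes (0%), and its unadjusted p was under 0.05 for 68 (0.613%). By DESeq2 there were 0 calls and 216 genes at such an unadjusted p. The genes with the smallest p were low. Polr3f, a subunit of RNA polymerase III, stood at 9.58 and 9.55 CPM in late meiotic cells of stressed libraries 2 and 3 and 6.58, 10.8 and 24.4 CPM in those of controls. In pachytene-like cells Polr3f stood at 0.983 and 0.960 CPM in stressed and at 8.20, 11.7 and 18.0 CPM in control libraries (interaction log2 3.25, SE 1.06, edgeR adjusted p = 1.00). Rbmy1j, an RNA-binding protein of the germ line, ran the other way (interaction log2 -3.49, SE 1.14, edgeR adjusted p = 1.00), with 18.8 and 12.1 CPM in late meiotic cells of stressed libraries 2 and 3 and 17.7, 48.7 and 23.8 CPM in those of controls, against 5.57 and 17.3 CPM and 1.67, 1.06 and 1.80 CPM in pachytene-like cells. Rbmy1j belongs to a family of close copies, so its counts are uncertain.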

How the data were processed

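Per the labels' protocols, testis tissue was minced, dissociated in a commercial mix and filtered, then built into Singleron GEXSCOPE libraries and sequenced on an Illumina NovaSeq. For each library the authors deposited counts of genes by cells, not stated to be reads or molecules, and normalized values on a natural log scale, which equal ln(1 + x), where x is the cell's count at a depth of 10000. Aligner, genome build and cell filter are not stated in the labels. Cells were assigned on the normalized values. Doublets were not called and no cell was left out. Counts were summed per library over a set with at least 10 cells and tested with edgeR 4.0.16 (TMM, filterByExpr, quasi-likelihood, Benjamini-Hochberg over all genes, 0.05) in R 4.3.3. The procedure was tried on simulated counts with the same spread for all genes, so its power on these libraries was not measured. DESeq2 1.42.0 was an alternative. CPM is the sum scaled to 1000000, and ratios use CPM + 1. Shares were compared with exact permutation tests, and their Wilson intervals came from scipy 1.17.1.

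Members and lists were chosen with earlier results of these data known. Named genes are up to 4 members of each list with the highest mean, the 20 leading genes of the set, and the 10 genes with a symbol and the smallest p in each direction (3 for the interaction), besides genes named in an earlier account of these data. Others, such as Aurkb, Incenp, Cdc20, Fbxo43, Tdrd1, Acrv1, Ckap2 and Sgo2, were named after their values were seen. Of 422 different genes written into the lists, 29 were not found under that name. A gene that this rule names is not reported here. Tpx2 had no promoter window, so none is shown.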

Additional observations from a re-analysis of the deposited data

How the results depend on the processing

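The edgeR test called 0 genes under all alternatives but the test without a filter on low counts, which called 1, and DESeq2 called 4. The interaction called 0 in all 13 alternatives, of which a minimum of 20 cells and leaving out cells with somatic markers changed neither the number of genes tested nor that at an unadjusted p under 0.05, and 2 left 1 stressed library, assumed to vary like the controls. Without each library in turn, the difference in the share of all cells ran from -3.45 to 2.52 percentage points. It was above 0 without control library 1 (2.52), stressed library 1 (1.74) or stressed library 2 (0.502), and with a margin of 0.5 over the next set (0.0516). The difference in the share of late meiotic plus pachytene-like cells ran from -3.70 to 4.38 points without each library, at -3.70 without stressed library 3 (exact permutation p = 0.1, the smallest that 2 against 3 allow), and was -1.53 points with z-scores within each library. The causes were not tested. Of 419 alternatives over 28 named genes, 413 kept direction and side of the threshold, 5 crossed it, under DESeq2 or without a filter, and 1 turned: leaving out each library, Aurka ran from -0.25 (without control library 2) to 0.0486 (without control library 1). Most of these genes were picked for a small p in the same libraries, and genes of the rule are among them. A kept direction was therefore likely beforehand and is no test of the differences. Markers of late meiosis above pachytene-like cells in every library numbered 10 without stressed library 2 and 9 under the other choices tried. The sample titles do not say whether equal replicate numbers pair the animals. Deviations from the group means correlated at -0.03, -0.06 and 0.22 for equal numbers and at -0.35 to 0.26 for unequal ones. So few libraries cannot settle the question. A replicate block gave 0 calls and p = 0.75 and 1 for the shares, by exact sign flips. Stressed library 1, with 16 late meiotic cells, limits the precision of the stressed means.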
